A study of Mus musculus with 6 samples.

Results

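The mitochondrial ribosome and the machinery that imports proteins into mitochondria were compared between mouse liver cells carrying a Foxp3 reporter in an autoimmune hepatitis (AIH) model and the same cells in controls. The members were all genes of the deposited table whose symbols name a large- or small-subunit mitochondrial ribosomal protein (Mrpl or Mrps and a number) or a translocase subunit of the inner or outer mitochondrial membrane (Timm or Tomm and a number). These were 102 of 15442 genes: 78 ribosome genes and 24 import genes. The study sorted eGFP-positive regulatory T (Treg) cells, which hold immune responses in check, by flow cytometry from the livers of Foxp3-GFP reporter mice. It made 3 libraries from an AIH model and 3 from controls, both on the reporter background, by SMART-Seq2, which amplifies full-length cDNA from small amounts of polyadenylated RNA. The sources used here do not give the age or sex of the mice, how AIH was induced, the number of cells or animals per library, or any library batches. No label says that libraries came from separate animals, so p-values reflect the spread among these libraries alone, which may be technical.

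Mammalian mitochondria carry their own genome, whose messenger RNAs encode only hydrophobic subunits of the respiratory chain, and a dedicated ribosome translates them. Every protein of that ribosome is encoded in the nucleus, made in the cytosol and imported. Proteins enter through the TOM complex of the outer membrane and are then passed to the TIM23 complex, which takes proteins with a cleavable presequence, or to the TIM22 complex, which inserts carrier proteins, with small TIM chaperones escorting them between the membranes. In T cells, mitochondrial protein synthesis is known to increase during activation.

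Libraries held 17780509 to 24572388 counts, and pairs of libraries of the same group correlated across genes at r = 0.736 to 0.811 on the log2 CPM scale. Foxp3, the transcription factor of Treg cells, went against the sort in the AIH group, with 5, 91 and 32 counts in AIH 1, 2 and 3 against 418, 274 and 1002 in Control 1, 2 and 3, so the former are called the libraries labelled AIH. The other 4 Treg markers did not share this: Tnfrsf18 (log2 fold change 1.92), Ikzf2 (0.49) and Ctla4 (0.43) were above 0 and Il2ra was at -0.04, none past the edgeR test. With Foxp3 the list summed to 1533 to 2948 TPM in the libraries labelled AIH and 608 to 1053 TPM in the controls, without overlap. Tnfrsf18 made most of that difference. In CPM (counts scaled to library size) it averaged 1790 against 473, where the whole list averaged 3258 against 1614. Ikzf2, Ctla4 and Il2ra overlapped between groups, and Foxp3 lay below every control. The 5 T cell markers summed to 4368, 6051 and 4849 TPM (transcript abundance scaled for gene length and library) in the libraries labelled AIH. In the controls they summed to 3232, 3229 and 2279, with 4 of 5 log2 fold changes above 0. The exception was Cd4, at -0.67, whose groups overlapped. The 11 macrophage markers summed to 243, 1885 and 2162 TPM in the libraries labelled AIH and to 5841, 3282 and 13935 in the controls, 0 of 11 had a positive log2 fold change, and none was at 0 counts in any library. The 4 B cell markers summed to 32.4 to 61.8 TPM in the libraries labelled AIH and 136 to 347 in the controls, with 0 of 4 positive, and Ms4a1 was at 0 counts in AIH 2. Sums overlapped between groups for the CD8 and NK list (75.5 to 457 against 30.7 to 171, 4 of 5 positive), in which Ncr1 and Klrb1c were at 0 counts in AIH 2 and AIH 3 and Ncr1 also in Control 3. Of that list only Cd8a lay above every control. It had 2237, 1031 and 2709 counts in AIH 1, 2 and 3 and 248, 296 and 688 in Control 1, 2 and 3. Its log2 fold change was 2.53 (edgeR adjusted p = 0.317). Sums also overlapped for the hepatocyte list (475 to 2168 against 769 to 2750, 0 of 6 positive) and the cell cycle list (437 to 624 against 422 to 523, 5 of 7 positive), with no gene at 0. The part of these lists in the member values below was not tested, and in such bulk libraries fewer cells of a type and less RNA per cell cannot be told apart.

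Promoter sequences of some members are shown because genes for mitochondrial proteins are known to share binding sites of a few transcription factors, whose short letter patterns can be looked up. The windows are RefSeq sequence of build GRCm38.p6, from 250 bases before to 50 after the gene start, 5′ to 3′ on the gene's strand. They belong to members whose libraries did not overlap between groups in CPM and whose window held a pattern, and they were chosen after the values were seen. Capitals mark GCGCATGC (the core of the NRF1 site), CCGGAAG (the ETS family, which includes GABPA), AAGATGGCG (YY1) or CACGTG (the E-box of MYC and related factors), searched on both strands. Overlapping matches of the same pattern, on either strand, were joined and counted together.
Mrps33, a small-subunit protein, minus strand of chr6:39810887-39811186, with 1 ETS pattern: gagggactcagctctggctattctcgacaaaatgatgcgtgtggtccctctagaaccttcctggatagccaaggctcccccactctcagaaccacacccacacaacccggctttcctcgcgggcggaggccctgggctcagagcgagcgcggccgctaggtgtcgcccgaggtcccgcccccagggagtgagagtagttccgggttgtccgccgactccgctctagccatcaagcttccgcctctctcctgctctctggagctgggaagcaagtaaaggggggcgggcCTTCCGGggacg
Mrpl32, a large-subunit protein, minus strand of chr13:14612988-14613287, with 3 NRF1 patterns: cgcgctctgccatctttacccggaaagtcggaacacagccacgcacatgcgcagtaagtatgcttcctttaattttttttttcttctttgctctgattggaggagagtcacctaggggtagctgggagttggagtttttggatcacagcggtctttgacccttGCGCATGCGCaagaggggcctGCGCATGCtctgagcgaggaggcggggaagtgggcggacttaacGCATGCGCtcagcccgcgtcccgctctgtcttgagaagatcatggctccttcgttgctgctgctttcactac
Mrpl17, a large-subunit protein, minus strand of chr7:105811038-105811337, with 1 ETS and 1 NRF1 pattern: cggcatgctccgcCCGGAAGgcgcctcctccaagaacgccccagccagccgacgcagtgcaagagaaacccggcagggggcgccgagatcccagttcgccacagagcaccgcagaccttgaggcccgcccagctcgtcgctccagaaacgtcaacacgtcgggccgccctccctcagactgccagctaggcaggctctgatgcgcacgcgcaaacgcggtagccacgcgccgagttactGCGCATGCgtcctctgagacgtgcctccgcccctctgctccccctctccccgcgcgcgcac
Mrps24, a small-subunit protein, minus strand of chr11:5707652-5707951, with 1 YY1 pattern: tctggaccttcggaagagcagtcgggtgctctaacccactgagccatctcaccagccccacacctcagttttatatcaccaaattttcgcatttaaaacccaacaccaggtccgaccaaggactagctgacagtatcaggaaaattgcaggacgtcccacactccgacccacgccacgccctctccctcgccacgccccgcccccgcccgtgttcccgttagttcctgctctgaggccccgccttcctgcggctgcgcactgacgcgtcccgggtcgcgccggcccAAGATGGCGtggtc
Timm10, a small TIM chaperone, plus strand of chr2:84826771-84827070, with 2 ETS patterns and 1 E-box: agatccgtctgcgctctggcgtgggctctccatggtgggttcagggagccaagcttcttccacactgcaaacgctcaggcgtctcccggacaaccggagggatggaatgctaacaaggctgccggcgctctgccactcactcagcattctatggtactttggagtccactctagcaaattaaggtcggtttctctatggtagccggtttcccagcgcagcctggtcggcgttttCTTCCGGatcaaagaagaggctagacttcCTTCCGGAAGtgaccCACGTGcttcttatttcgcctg

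The table held 98 such windows for 90 of the 102 members, and windows for 9021 of the 11140 genes tested. The table may lack some windows, so the shares below hold only for those given. CCGGAAG was present in 36 of the 98 member windows (36.7%), in 18.2% of the windows of all genes tested and in 8.86% of all 32851 windows. GCGCATGC was present in 9.18% of member windows, 5.16% of those of genes tested and 2.71% of all. AAGATGGCG gave 9.18%, 3.08% and 1.40%, and CACGTG gave 11.2%, 9.81% and 7.15% in the same order. The last letters of CCGGAAG can be the first of AAGATGGCG, and 0 windows of the table held the 2 patterns joined in that way. Member windows had a median GC content of 58.5%, against 60.0% for genes tested and 52.7% for all windows. Most member windows thus carried at least 1 pattern (55 of 98, or 56.1%, against 31.5% for genes tested). The median log2 fold change was 0.35 in the 34 tested members with CCGGAAG and 0.40 in the 55 without, whereas over all genes tested it was 0.06 with and -0.09 without. For the members it was 0.39 with GCGCATGC and 0.35 without, 0.42 with AAGATGGCG and 0.37 without, and 0.54 with CACGTG and 0.35 without, with 9 genes holding each of these patterns. None of these differences was tested. A match is a letter pattern, and whether a factor binds there was not measured.

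Most ribosome genes had higher values in the libraries labelled AIH, but no single one passed the test. The log2 fold change (AIH minus control) was above 0 for 63 of the 78 ribosome genes (80.8%), where 48.1% of the 11140 genes tested were above 0. Its median was 0.38, against -0.04 over all genes tested. After adjustment over all genes tested (edgeR quasi-likelihood test, threshold 0.05), 0 of 78 were called, where 0.0898% of genes tested were called (10 genes), and the lowest adjusted p of a ribosome gene was 0.421. DESeq2 and limma-voom also called 0. At an unadjusted p under 0.05, 14 ribosome genes were higher (17.9%) and 0 lower, against 4.42% and 3.85% of all genes tested. Most members were short and well expressed. Among other genes of the shortest quintile by length and the 2 highest by level, 12.8% were higher with such a p. The 14 became 7 without AIH 1, 8 without AIH 2 and 8 without AIH 3. They became 11 without Control 1, 7 without Control 2, 10 without Control 3 and 6 without both AIH 1 and Control 3. With library number as a block there were 12, and with DESeq2 and with limma-voom 14. In the fits without AIH 2, without Control 3, with the block and with DESeq2, 1 ribosome gene was lower with such a p. Scaling by library totals left 6 with such a p and 58 above 0, and moved the median of all genes tested by -0.19 log2.

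In 17 ribosome genes (21.8%) the lowest library labelled AIH exceeded the highest control, which 8.46% of genes tested showed. Among other genes of the shortest quintile by length and the 2 highest by level, 21.0% did so. Overlap is counted in CPM here and below, except where TPM are given. In TPM some of the 17 overlapped, such as Mrpl15, Mrps6, Mrpl14 and Mrps17. Only Mrpl9 lay below every control, the direction that 8.87% of genes tested showed. The 95% interval of a single ribosome gene's log2 fold change, without adjustment, reached a median of 1.01 to either side. With 3 libraries per group, a typical member with a smaller value than about that had an interval that included 0. After adjustment larger values were not called either, such as 1.92 for Mrpl39 (edgeR adjusted p = 0.535).

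**Figure D1:**
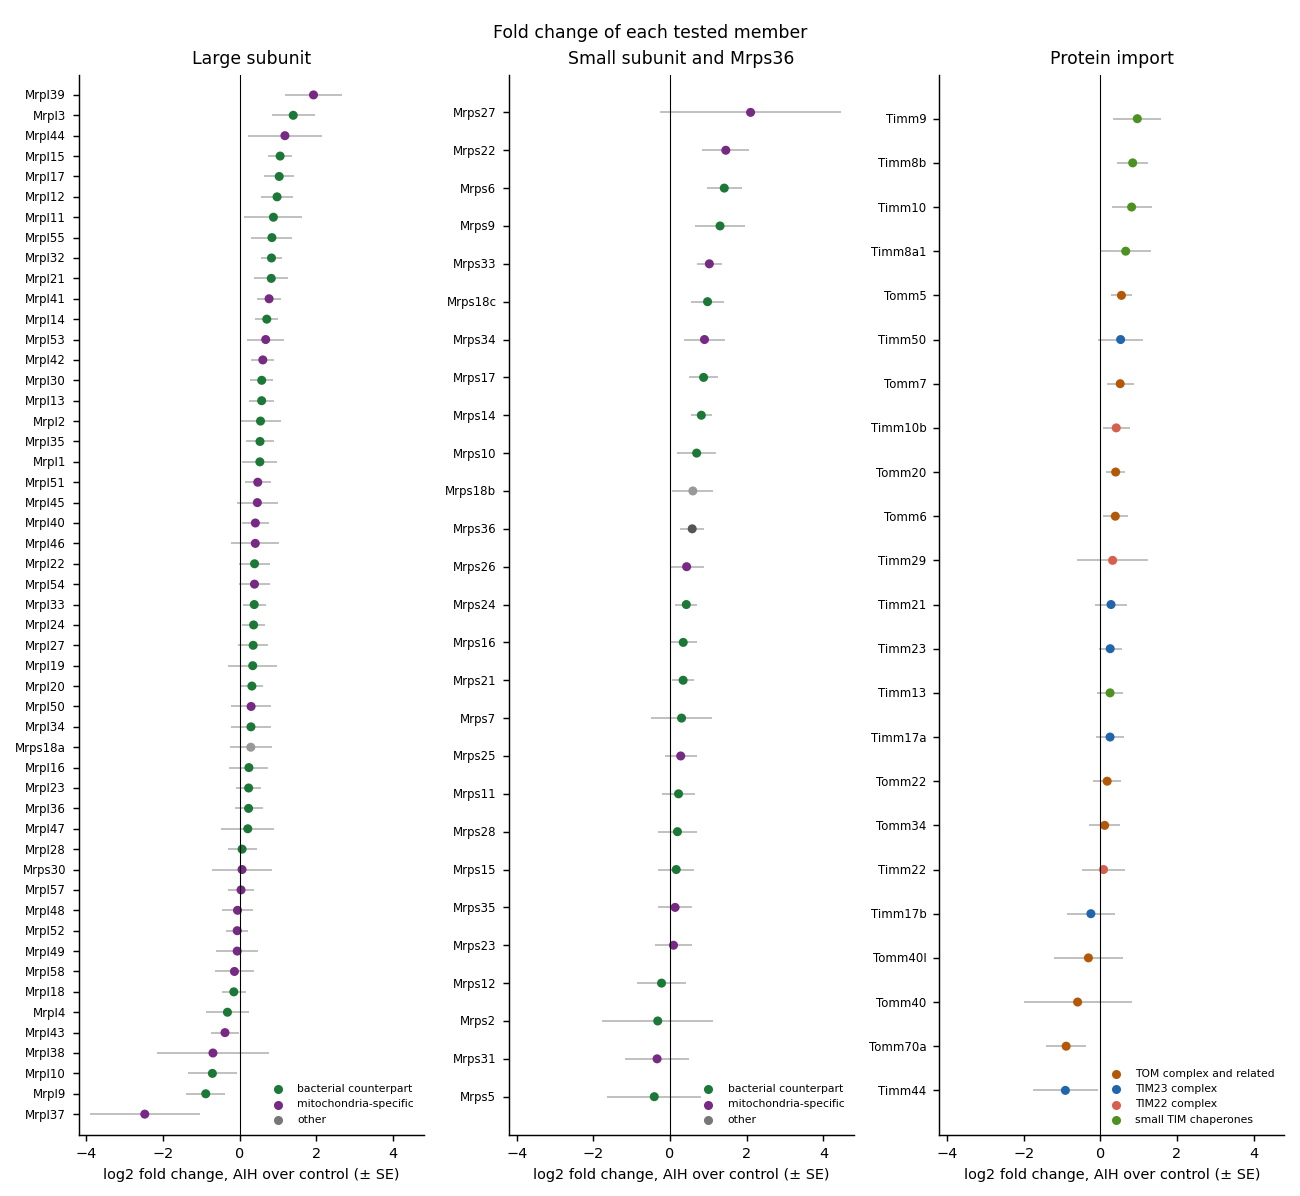
Log2 fold change (AIH minus control, horizontal axis) of each tested member, with bars of 1 approximate standard error; colours mark ribosomal proteins with a bacterial counterpart or specific to mitochondria, and the import complexes. Points lie to the right of 0 for 63 of 78 ribosome genes and 18 of 23 import genes, with Mrpl37 and Mrps27 at the ends.

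The import genes leaned the same way by less. Of 24, 23 passed the filter on low counts. Timm8a2, the second copy of the chaperone gene Timm8a, did not, with 1 count in Control 1 and 0 in each of the other libraries. Of the 23, 18 had a log2 fold change above 0, with a median of 0.28. edgeR called 0, DESeq2 and limma-voom also called 0, the lowest adjusted p was 0.66, and 0 had an unadjusted p under 0.05 in either direction, against 0.0898% of genes tested called and 4.42% (higher) and 3.85% (lower) with such a p. In CPM Tomm5, Tomm20 and Timm10 lay above every control in each library labelled AIH (3 of 23, or 13.0%). None lay below, where 8.46% and 8.87% of genes tested lay above and below. In TPM only Tomm5 of these still separated the groups. Tomm20 had 43.23 TPM in AIH 1 and 49.6 in Control 3, and Timm10 had 94.44 in AIH 1 and 115.08 in Control 2. Whether import differed from the ribosome was not tested.

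Each gene was also centred on its mean over the 6 libraries, on the scale log2(CPM + 0.5), where CPM are counts scaled to normalized library size and not to length. The median ribosome gene then lay at 0.16, 0.42 and 0.16 in AIH 1, 2 and 3 and at 0.09, -0.27 and -0.29 in Control 1, 2 and 3. AIH 2 stood highest and Control 1 was close to AIH 1 and AIH 3, so the separation from the controls came mainly from Control 2 and Control 3. The median import gene lay at 0.31, 0.41 and -0.09 in AIH 1, 2 and 3 and at 0.05, -0.14 and -0.17 in Control 1, 2 and 3. Here AIH 3 was below Control 1 and the groups overlapped. The median within-group SD was 0.53 log2 for the ribosome genes and 0.53 for the import genes, against 0.89 over all genes tested. It was lower still for genes with cytosolic ribosomal protein symbols (0.33) and nuclear genes with respiratory chain symbols (0.35). Of the 101 tested members, 89 belonged to the 2 highest quintiles of genes by level.

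**Figure D2:**
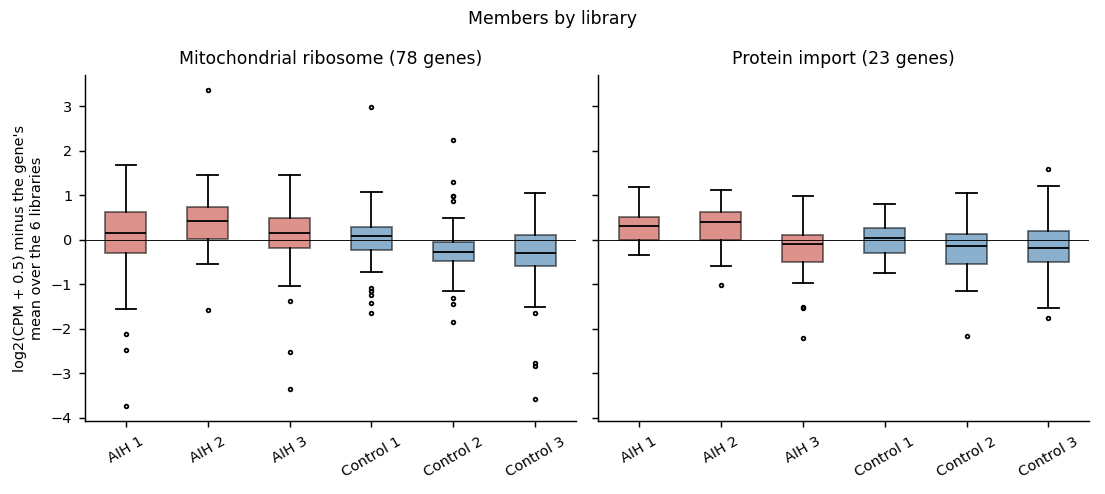
Each tested member's log2(CPM + 0.5) minus its mean over the 6 libraries (vertical axis), by library, for the ribosome (78 genes) and import (23 genes); boxes show quartiles, lines medians, whiskers reach to 1.5 times the box height and circles are genes beyond. Ribosome medians run from -0.29 in Control 3 to 0.42 in AIH 2, and the import median of AIH 3 (-0.09) lies below that of Control 1 (0.05).

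Summed over members, levels were higher in the libraries labelled AIH by a ratio that depended on the unit. The summed TPM of the ribosome genes were 10194, 10751 and 9708 in AIH 1, 2 and 3 and 9317, 8191 and 8755 in Control 1, 2 and 3. The groups did not overlap, and the ratio of their means (10218 ± 522 against 8754 ± 563, SD, n = 3) was 1.17. The small subunit carried more of this (3511 ± 135 against 2723 ± 267, ratio 1.29, no overlap) than the large subunit (6521 ± 448 against 5887 ± 316, ratio 1.11, overlapping). Import genes summed to 2882, 2986 and 2340 TPM in AIH 1, 2 and 3 and to 2434, 2381 and 2193 in Control 1, 2 and 3, a ratio of 1.17 with AIH 3 below Control 1 and Control 2. On the CPM scale the ratios were 1.40 for the ribosome and 1.27 for import, and in both the groups did not overlap. CPM are not divided by length, and their library sizes were also multiplied by a normalization (TMM) factor. That factor was 0.898, 0.984 and 0.933 in AIH 1, 2 and 3 and 1.013, 1.092 and 1.096 in Control 1, 2 and 3. A factor below 1 raises CPM. The part of each step in the difference between units was not tested.

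**Figure D3:**
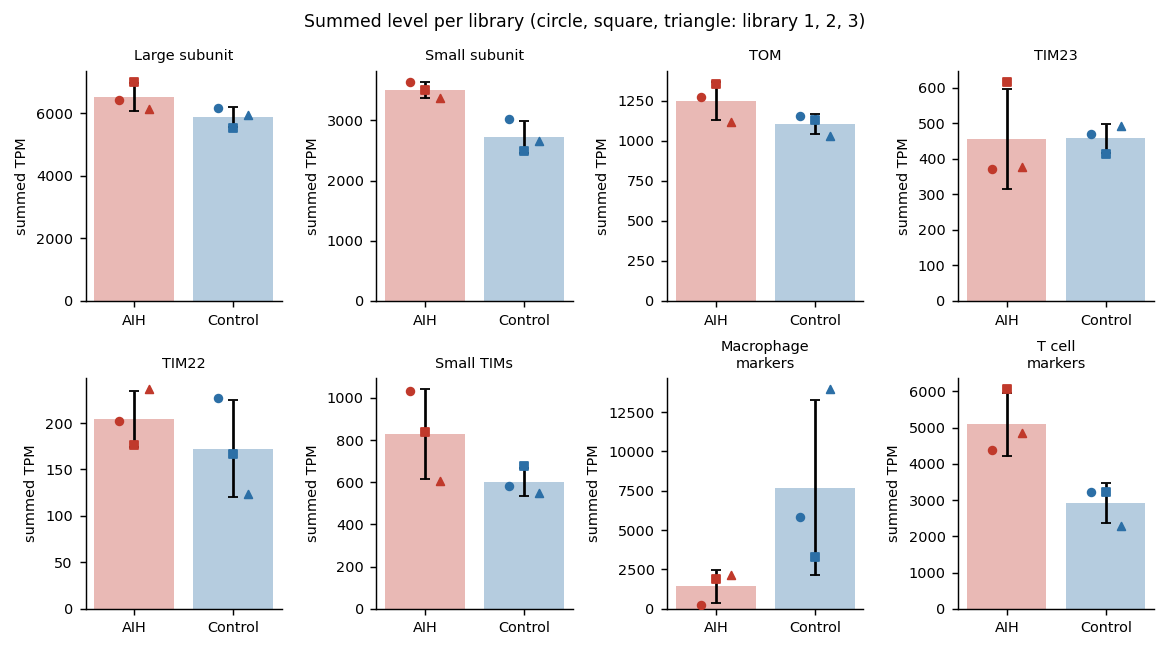
Summed TPM per library of the ribosomal subunits, the import complexes and 2 marker lists (vertical axes, from 0); bars are group means, error bars SD (n = 3), and the circle, square and triangle are libraries 1, 2 and 3. Small-subunit sums do not overlap between groups (ratio 1.29), TIM23 sums do (ratio 0.995), and macrophage markers are lower in the libraries labelled AIH (ratio 0.186).

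Within the large subunit, 40 of 51 genes had a log2 fold change above 0 (median 0.38). Of the 51, 8 (15.7%) were higher with an unadjusted p under 0.05 and 11 (21.6%) lay above every control. Over all genes tested these shares were 4.42% and 8.46%, and over other short, well-expressed genes 12.8% and 21.0%. Mrpl15 (gene ID 27395), a homologue of a bacterial large-subunit protein, had 146, 203 and 223 CPM in AIH 1, 2 and 3 and 95.9, 102 and 77.6 in Control 1, 2 and 3. In CPM the lowest library labelled AIH was well above the highest control, but in TPM AIH 1 (32.07) lay just below Control 2 (33.07). The log2 fold change was 1.05 (SE 0.31, edgeR adjusted p = 0.421), the smallest p among the members. Mrpl32 (75398), whose protein is known to need processing by a mitochondrial protease before ribosomes assemble, had 311, 195 and 285 CPM against 155, 153 and 139. The controls were tight and the groups did not overlap, with a log2 fold change of 0.83 (SE 0.28, edgeR adjusted p = 0.493). Mrpl17 (27397) had 136, 161 and 130 CPM against 88.0, 84.5 and 37.0, also without overlap, at 1.03 (SE 0.39, edgeR adjusted p = 0.535).

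Mrpl12 (56282), a stalk protein that meets the translation factors, had 130, 94.2 and 71.6 CPM in AIH 1, 2 and 3 and 46.0, 33.7 and 71.0 in Control 1, 2 and 3. AIH 3 exceeded Control 3 by less than 1 CPM, and the log2 fold change was 0.97 (SE 0.43, edgeR adjusted p = 0.601). Its partner Mrpl10 (107732), which anchors the stalk, pointed the other way but its groups overlapped, with 43.0, 37.6 and 21.9 CPM against 16, 70.9 and 81.2 (log2 fold change -0.71, SE 0.63). Among the other lower members, Mrpl9 (78523) had 16.6, 42.4 and 54.0 CPM in AIH 1, 2 and 3 and 64.1, 64.5 and 80.4 in Control 1, 2 and 3. AIH 1 was lowest and the groups did not overlap, and the log2 fold change was -0.89 (SE 0.51, edgeR adjusted p = 0.716). Mrpl37 (56280), a protein found only in mitochondrial ribosomes, ranged from 0.292 to 15.7 CPM in the libraries labelled AIH and from 2.33 to 63.5 in the controls. It was low in AIH 3, AIH 1 and Control 3 alike, and its log2 fold change of -2.48 carried an SE of 1.44 (edgeR adjusted p = 0.717).

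Per length, the most abundant large-subunit genes were Mrpl33 (66845) at a mean of 896 TPM over the 6 libraries and Mrpl42 (67270) at 627 TPM. For Mrpl33 the TPM were 1148, 823 and 824 in AIH 1, 2 and 3 and 920, 834 and 828 in Control 1, 2 and 3, so that AIH 1 alone stood out. Mrpl42 had 809, 547 and 736 TPM against 450, 649 and 571, with AIH 2 below Control 2 and Control 3. Their log2 fold changes were 0.38 (SE 0.30) and 0.60 (SE 0.30), and neither passed the test. At the other end, Mrpl19 had a mean of 7.48 TPM.

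Of the 26 small-subunit genes, 22 had a log2 fold change above 0 (median 0.38). Among the 26, 6 (23.1%) were higher with an unadjusted p under 0.05 and 5 (19.2%) lay above every control. Over all genes tested these shares were 4.42% and 8.46%, and over other short, well-expressed genes 12.8% and 21.0%. Mrps33 (14548), a mitochondria-specific protein, had 441, 245 and 442 CPM in AIH 1, 2 and 3 and 229, 183 and 143 in Control 1, 2 and 3. AIH 2 was only just above Control 1, and the log2 fold change was 1.02 (SE 0.33, edgeR adjusted p = 0.466). Mrps6 (121022), a homologue of a bacterial protein, had 60.6, 137 and 99.1 CPM against 42.6, 23.2 and 45.7, without overlap, at 1.41 (SE 0.46, edgeR adjusted p = 0.474). In TPM its groups overlapped, with AIH 1 (73.55) below Control 3 (77.47). Mrps14 (64659) had 468, 356 and 311 CPM against 244, 195 and 206, without overlap, at 0.81 (SE 0.27, edgeR adjusted p = 0.482). All of these passed an unadjusted p of 0.05 and none passed the adjustment.

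The small-subunit genes that were lower in the libraries labelled AIH had wide intervals. Mrps12 (24030), which lies at the decoding centre, had 15.6, 121 and 91.7 CPM in AIH 1, 2 and 3 and 101, 54.6 and 111 in Control 1, 2 and 3. Only AIH 1 was low, and the log2 fold change was -0.22 (SE 0.65). Mrps31 (57312) was again low in AIH 1, at 3.57 CPM against 40.6 and 29.3 in AIH 2 and AIH 3 and 22, 27.1 and 43.8 in the controls (log2 fold change -0.34, SE 0.84). For Mrps5 (77721), a homologue of a bacterial protein, the libraries labelled AIH had 3.36, 12.7 and 2.97 CPM and the controls 7.37, 5.52 and 12.4 (log2 fold change -0.41, SE 1.23). Without AIH 1 and Control 3 Mrps12, Mrps31 and Mrps5 had log2 fold changes above 0, at 0.45, 0.51 and 0.27.

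Mrps18c (68735) and Mrps21 (66292) were the most abundant small-subunit genes, at means of 631 and 534 TPM. Mrps18c had 1124, 530 and 693 TPM in AIH 1, 2 and 3 and 614, 519 and 304 in Control 1, 2 and 3. AIH 1 was highest and AIH 2 lay below Control 1, and the log2 fold change in counts was 0.98 (SE 0.43, edgeR adjusted p = 0.601). With AIH 1 and Control 3 left out it was 0.24. The values of Mrps21 overlapped (514 to 576 TPM against 421 to 585, log2 fold change 0.34, SE 0.29). Mrps36 (66128), named as a small-subunit protein and since known as part of the 2-oxoglutarate dehydrogenase complex of the citric acid cycle, was counted with the ribosome by its symbol. Its CPM were 95.7, 131 and 134 against 82.6, 84.1 and 75.5, without overlap (log2 fold change 0.58, SE 0.32).

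Other ribosome genes with an unadjusted p under 0.05 were Mrpl39, Mrpl3, Mrpl41, Mrpl14, Mrps22 and Mrps17, named here after their values were seen. Their log2 fold changes ran from 0.70 (Mrpl14) to 1.92 (Mrpl39), and all but Mrps22 had groups that did not overlap in CPM. In TPM Mrpl3, Mrpl14 and Mrps17 overlapped too. In Mrpl39 the controls were 59.1, 47.6 and 4.40 CPM against 156, 118 and 147 in the libraries labelled AIH, so that Control 3 added much of the fold. Ribosomal proteins inherited from the bacterial ancestor and those found only in mitochondria had like medians. Of 46 with a bacterial counterpart, 39 had a log2 fold change above 0 (median 0.37) and 13 (28.3%) lay above every control. Of 29 mitochondria-specific proteins, 21 had one above 0 (median 0.38) and 3 (10.3%) lay above every control. The latter share was 8.46% over all genes tested and 21.0% over other genes that were short and well expressed. A difference between these classes was not tested.

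Drop-outs, in which a gene with many counts in one library had almost none in another, were also counted. A count under 10 in 1 library with at least 100 in another occurred in 4 of 78 ribosome genes (5.13%), 0 of the import genes and 24.6% of the genes tested. The last share covers genes of every level, while 89 of 101 tested members were in the 2 highest quintiles by level. A share for genes of like level was not counted. The 4 were Mrps27, Mrpl38, Mrpl37 and Mrps2. Mrps27 had 15.5 CPM in AIH 2 and 0 to 2.58 in the other libraries, which gave the log2 fold change of 2.10 with an SE of 2.37.

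**Figure D4:**
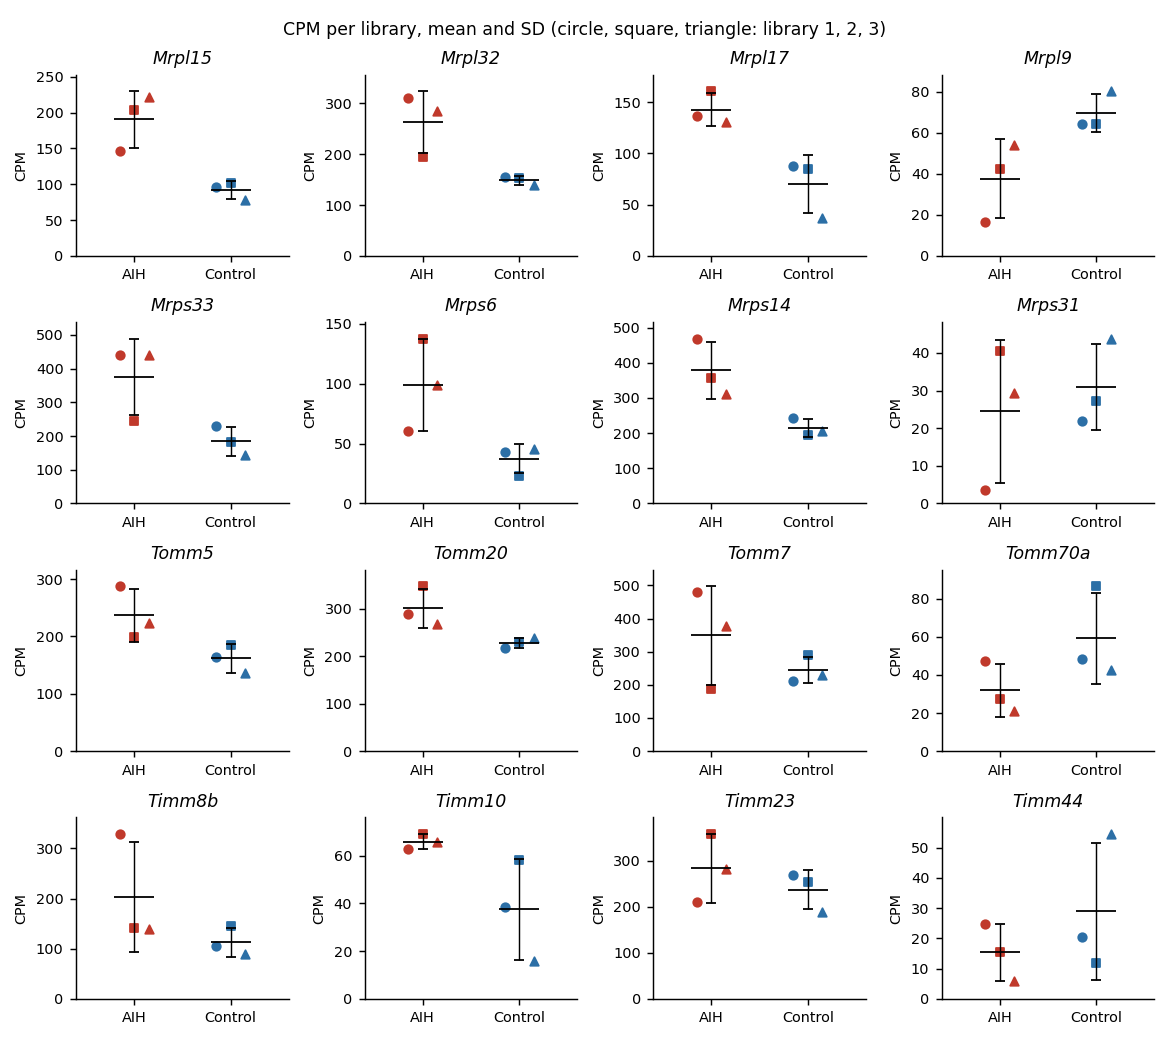
CPM (vertical axes, from 0) of 16 members in the 6 libraries; circle, square and triangle are libraries 1, 2 and 3, the long line is the group mean and bars are SD (n = 3). Groups are apart in genes such as Mrpl15, Mrpl32 and Mrps14 and overlap in genes such as Mrps31, Timm23 and Timm44.

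In the TOM complex, 6 of 9 genes had a log2 fold change above 0 (median 0.18, and -0.11 without AIH 2). Tomm5 (68512), a small subunit and the most abundant import gene of this complex (mean 376 TPM), had 287, 198 and 224 CPM in AIH 1, 2 and 3 and 163, 186 and 136 in Control 1, 2 and 3. The groups did not overlap, although AIH 2 and Control 2 were close, and the log2 fold change was 0.55 (SE 0.28, edgeR adjusted p = 0.677). Tomm20 (67952), the receptor for presequences, had 289, 347 and 267 CPM against 217, 230 and 238. The controls were close to each other and all below the libraries labelled AIH (log2 fold change 0.40, SE 0.25, edgeR adjusted p = 0.749). Tomm7 (66169), a small subunit, had 481, 189 and 378 CPM against 213, 289 and 231, with AIH 2 lowest of all (0.52, SE 0.36).

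The other receptors and the channel genes had groups that overlapped, with wide intervals for the channel genes. Tomm22 (223696), a receptor and the hub of the complex, had 169, 271 and 157 CPM in AIH 1, 2 and 3 and 252, 149 and 127 in Control 1, 2 and 3, a log2 fold change of 0.18 (SE 0.36). The channel gene Tomm40 (53333) was low throughout, at 8.85, 4.99 and 0.633 CPM against 3.06, 7.28 and 11.5 (log2 fold change -0.59, 95% interval -3.76 to 2.57). Its paralogue Tomm40l (641376) had 12.6, 23.8 and 17.0 CPM against 28.5, 3.20 and 34.6 (-0.31, SE 0.91). The receptor gene for carrier proteins, Tomm70a (28185), had the smallest p among the lower TOM genes: 47.4, 27.3 and 20.9 CPM against 48.2, 86.5 and 42.7. AIH 1 lay within the controls, and the log2 fold change was -0.89 (SE 0.52, edgeR adjusted p = 0.719).

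For the TIM23 complex, 4 of 6 genes had a log2 fold change above 0 (median 0.25, and 0.01 without AIH 2), and 0 separated the groups. The channel gene Timm23 (53600) had 209, 358 and 282 CPM in AIH 1, 2 and 3 and 270, 252 and 189 in Control 1, 2 and 3 (log2 fold change 0.26, SE 0.30). Its partner Timm17a (21854) had 143, 119 and 90.4 CPM against 116, 66.8 and 113 (0.25, SE 0.35), and the other partner Timm17b (21855) had 37.6, 79.1 and 14.4 CPM against 66.1, 34.5 and 55.1 (-0.25, SE 0.63). In each of them the lowest library labelled AIH was below the middle control. Timm50 (66525), the receptor that faces the space between the membranes, had 45.6, 48.9 and 21.8 CPM against 24.4, 17.9 and 38.4 (0.53, SE 0.59). Timm44 (21856), which tethers the import motor, had 24.8, 15.5 and 5.75 CPM against 20.3, 11.9 and 54.5 (-0.91, SE 0.85). The high value of Control 3 set that difference, which was -0.07 without it.

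All 3 genes of the TIM22 complex overlapped between groups, with a median log2 fold change of 0.32 that was -0.04 without Control 3. Timm10b (14356), a small chaperone bound to the complex, had 162, 123 and 180 CPM in AIH 1, 2 and 3 and 163, 103 and 82.8 in Control 1, 2 and 3 (log2 fold change 0.41, SE 0.35). The channel gene Timm22 (56322) had 31.1, 43.2 and 32.2 CPM against 23.1, 54.4 and 23.0 (0.08, SE 0.57, and -0.11 with library totals), and Timm29 (69773), a subunit found in animals, had 17.7, 6.35 and 26.9 CPM against 21.0, 13.9 and 5.85 (0.32, SE 0.92).

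Each of the 5 tested small TIM chaperones had a log2 fold change above 0 (median 0.81), although only Timm10 had groups that did not overlap, and that in CPM alone. Leaving out AIH 1 gave a median of 0.36, and leaving out Control 3 gave 0.46. Timm10 (30059) had 62.8, 69.2 and 65.9 CPM in AIH 1, 2 and 3 and 38.6, 58.2 and 15.7 in Control 1, 2 and 3. The libraries labelled AIH were nearly equal while the controls were spread, and the log2 fold change was 0.81 (SE 0.52, edgeR adjusted p = 0.755). Timm9 (30056), with which it forms a ring, had 36.5, 59.0 and 24.0 CPM against 25.5, 11.9 and 23.8 (0.96, SE 0.62, edgeR adjusted p = 0.755), AIH 3 lying below Control 1. Timm8b (30057), the most abundant import gene per length (mean 391 TPM), had 329, 141 and 139 CPM against 106, 145 and 88.6. Only AIH 1 was above all controls, and the log2 fold change of 0.84 (SE 0.41, edgeR adjusted p = 0.66) was 0.16 with AIH 1 and Control 3 left out. Timm13 (30055) had 216, 217 and 168 CPM against 186, 106 and 213 (0.25, SE 0.33). Reads from near-identical copies, such as Timm8a1 and Timm8a2 or processed pseudogenes, could have been divided by the authors' counting, so values of single paralogues are uncertain.

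Among all genes tested, the fold change moved with gene length and level, and members were mostly short and well expressed. Gene length was taken from the ratio of deposited counts to TPM. Of the tested members, 70 were in the shortest quintile of genes tested, and most were in the 2 highest by mean CPM. Over the genes that are no members, the median log2 fold change was 0.25 in the shortest quintile and -0.24 in the longest, and 0.25 in the highest quintile by level and -0.44 in the lowest. In the shortest quintile within the 2 highest level quintiles, 1262 other genes had a median of 0.33. Of them 73.8% were above 0 and 21.0% lay above every control. The 53 ribosome genes in that class had a median of 0.39, with 12 above every control, and the 12 import genes had a median of 0.46, with 2 above every control. The members' shares were therefore near those of other short, well-expressed genes, and nothing particular to the members was shown by them.

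**Figure D5:**
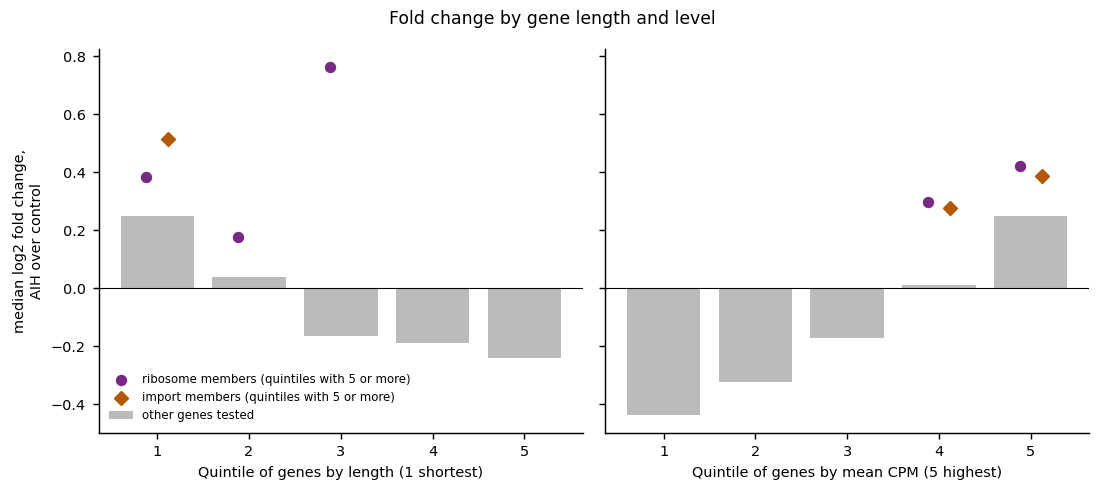
Median log2 fold change (AIH minus control, vertical axis) by quintile of gene length (left) and of mean CPM (right); grey bars are the other genes tested, and points are ribosome and import genes in quintiles with at least 5 of them. Other genes run from 0.25 to -0.24 with length and from -0.44 to 0.25 with level, and members sit mostly in the shortest and the highest quintiles.

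Other genes for mitochondrial and cytosolic translation give a further setting. Of 86 tested nuclear genes with respiratory chain symbols (beginning with Nduf, Cox4 to Cox8, Uqcr or Atp5), 71 had a log2 fold change above 0. Their median was 0.35, close to the ribosome's. The 92 tested genes with cytosolic ribosomal protein symbols (Rpl or Rps and a number) had a median of 0.01, with 49 above 0. Both lists were taken by symbol alone and can include genes for other proteins. Neither list was compared with the members by a test.

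Genes that serve the mitochondrial ribosome or import but carry other names gave the following counts, with 0 called in each list by edgeR. Over all genes tested, 0.0898% were called and 48.1% were above 0. An unadjusted p under 0.05 was reached by 4.42% (higher) and 3.85% (lower). Of 5 ribosomal proteins with other names, 4 had a log2 fold change above 0 (median 0.31), 0 had an unadjusted p under 0.05, and Chchd1 (0.55, SE 0.36) and Aurkaip1 (0.31, SE 0.32) had the smallest p. Of 34 assembly and translation factors, 21 were above 0 (median 0.18), 3 with an unadjusted p under 0.05 and 0 below 0 with one. Mterf3, which acts in ribosome assembly and mitochondrial transcription, had 65.0, 80.6 and 115 CPM in AIH 1, 2 and 3 and 35.4, 49.3 and 21.8 in Control 1, 2 and 3 (log2 fold change 1.29, SE 0.46, edgeR adjusted p = 0.502). Slirp, which stabilises mitochondrial messenger RNAs, had 371, 115 and 309 CPM against 114, 158 and 133 (0.97, SE 0.42, edgeR adjusted p = 0.589), AIH 2 lying within the controls.

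Of 22 other import and processing genes, 16 were above 0 (median 0.20), 3 with an unadjusted p under 0.05. Hspe1, the co-chaperonin that folds imported proteins, had 334, 240 and 323 CPM in AIH 1, 2 and 3 and 153, 151 and 143 in Control 1, 2 and 3. The groups did not overlap and the controls were tight, at a log2 fold change of 1.005 (SE 0.27, edgeR adjusted p = 0.378). Immp1l, an inner-membrane peptidase, had 253, 149 and 192 CPM against 109, 105 and 91.9, also without overlap (0.96, SE 0.31, edgeR adjusted p = 0.472). Of 12 tested regulators of nuclear genes for mitochondria, 5 were above 0 (median -0.04), 1 with an unadjusted p under 0.05.

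That regulator was Gabpb1, the partner subunit of GABPA, at 167, 89.1 and 152 CPM in AIH 1, 2 and 3 and 45.1, 46.5 and 35.1 in Control 1, 2 and 3. It did not pass adjustment (log2 fold change 1.69, SE 0.38, edgeR adjusted p = 0.317). GABPA binds the CCGGAAG pattern, and its gene Gabpa lay below every control in each library labelled AIH, at 39.8, 23.6 and 33.5 CPM against 50.2, 59.2 and 49.4 (-0.71, SE 0.46). Esrra, a nuclear receptor, was at 0.487 to 1.23 CPM against 1.77 to 11.5 (-2.71, SE 1.58). The 2 subunits of the GABP factor thus pointed in opposite directions, and neither passed the test.

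Single transcripts gave no more. Of 208 deposited transcripts of members, 156 passed the filter, and edgeR called 0, where 0% of the 17999 transcripts tested were called. DESeq2 and limma-voom called 0 member transcripts too. The lowest adjusted p was 0.866, and 5 had an unadjusted p under 0.05, all higher in the libraries labelled AIH (1 each of Mrps14, Mrpl15, Mrps33, Mrpl32 and Mrps6). The share of all transcripts tested with such a p was not counted, so the 5 have no background here. In 33 of 48 genes with several transcripts and TPM above 0 in every library, the leading transcript held over 50% of the gene's TPM in every library, and in 8 its share varied by over 50 percentage points between libraries. The share of Mrpl11's leading transcript was 5.92% in AIH 1 and 92.5 to 99.6% in the other libraries. In Mrpl48 it was 59.0, 48.4 and 69.1% in AIH 1, 2 and 3 and 94.9, 74.4 and 95.7% in Control 1, 2 and 3, without overlap. Such a separation occurred in 4 of the 48 genes and in 7.09% of the 6175 genes of the table with several transcripts, so the members' count was near that background. The sources used here do not say how reads were divided between transcripts, and error in that division was not modelled.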

How the data were processed

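RNA of 6 libraries (3 labelled AIH, 3 control) was measured. The authors deposited expected counts, of which 14.8 to 16.7% per library were not whole numbers, and TPM, per the file headers. Per the submitters' processing notes, the builds were GRCm39 and mm39 and the tools FastQC, STAR and featureCounts. The sources used here do not give versions or say how reads matching several genes were treated. The 24 columns of FPKM and normalized values per sample were not used.

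Expected counts were rounded and fitted over all genes in R 4.3.3 with edgeR 4.0.16: TMM, filterByExpr by group (minimum count 10, total 15), the quasi-likelihood test with group only, and Benjamini-Hochberg adjustment over all genes tested, threshold 0.05. SE is the log2 fold change over the root of the F statistic, rough near 0. The biological coefficient of variation was 0.948. The fit was also run on simulated data with less spread than these libraries and larger fold changes than any member had. That run does not show what could be detected here. Alternatives were DESeq2 1.42.0, limma-voom (limma 3.58.1), other scalings and filters, a replicate block and libraries left out.

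Named by rule, per role class: members called, up to 3 per direction with the smallest p, the 2 with the highest mean TPM, 12 subunits regardless of result, members failing the filter, and 2 per related list. Other names were chosen after their values were seen. Members and lists were chosen with earlier results of these data known, and the quintiles by length and level after seeing the data. One member of a marker list is not reported here by name.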

Additional observations from a re-analysis of the deposited data

How the results depend on the processing

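Under every alternative run, 0 ribosome genes, 0 import genes and 0 member transcripts were called. The median log2 fold change stayed above 0 throughout: 0.20 (library totals) to 0.52 (without Control 1) for the ribosome, and 0.09 (library totals) to 0.39 (without Control 1) for import. Library totals moved the median of all genes tested from -0.04 to -0.23, and relative to it the medians were 0.43 and 0.32. The called genes among all tested numbered 3 with library totals, 32 with no filter, 1 without AIH 1 and Control 3, 180 with DESeq2, 21 with limma-voom, and 0 to 1 with single libraries left out; the cause was not tested. The ribosome's summed ratio was 1.40 in CPM.

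Libraries with the same number had deviations correlated at -0.002, -0.021 and 0.159, and those with different numbers at -0.11 to 0.12. No label says whether the numbers pair libraries, and these values cannot decide it. With the replicate block 0 genes were called, and no member's call differed. Of 502 values of 36 named genes, 20 turned direction, with no call gained or lost, and 28 genes kept theirs. Timm22 gave -0.11 with library totals. Tomm40l gave 0.043 with the block and 0.062 with limma-voom. Without AIH 1 and Control 3, Timm22 gave -0.047, Mrps12 0.45, Mrps31 0.51, Mrps5 0.27, Tomm40l 0.37 and Timm29 -0.062. The ranges with 1 library left out were -0.12 to 0.62 for Timm22, -0.83 to 0.17 for Tomm40l, -0.72 to 0.26 for Mrps12, -0.91 to 0.17 for Mrps31, -0.11 to 0.53 for Tomm22, -0.19 to 0.79 for Timm29 and -1.01 to 0.16 for Timm17b. With 3 libraries per group, the intervals limit what can be seen for single members. The pseudocount alternative, meant for tables without counts, was not run.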
